A study of Mus musculus with 10 samples.

Results

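Kap, the gene of kidney androgen-regulated protein, was followed as 1 gene of the 28808 in the tables of the series. It was chosen by its abundance and by its level in the proximal tubule, so its share of each library, its level in proximal cells and its trace in other cells are given as a description, with no test. The same holds for its change between days in proximal cells, which is made of those levels. Tests were kept for differences in Kap among the proximal cells of 1 library and for other genes. In the GENCODE M21 annotation of GRCm38 the gene spans chr6:133849851-133853762 on the minus strand, with 4 exons in its longest model and no overlapping gene.

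The material was kidney cortex of mice aged 4 weeks, dissociated and captured as single cells by Drop-seq, in which the RNA of 1 droplet shares the barcode of 1 bead. There were 10 libraries. The control (1 library) came from normal kidneys, and the other 9 from injured kidneys at 6 times: days 1, 2 and 4, with a single library each, and days 7, 11 and 14, with a pair of libraries each. The labels give no kind of injury, sex, strain, genotype or animal, and do not say whether the 2 libraries of a day came from different animals. If they did not, p-values measure only the spread between libraries, which may be technical.

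Kap encodes a small protein of the proximal tubule, the segment that takes back most of what the glomerulus filters. In mouse kidney it is a textbook androgen-responsive transcript, held high in males by testosterone, and thyroid hormone also acts on it. Its protein has been described to bind cyclophilin B, the product of Ppib. The proximal tubule has a convoluted and a straight part, which carry different transporters, and its cells lose many transporters and metabolic enzymes after damage, when Havcr1 (kidney injury molecule 1) appears.

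The libraries held 7091848 to 31632205 counts, read here as unique molecular identifiers (UMIs), over 3585 to 10800 barcodes. After filters on UMIs, genes and mitochondrial share, 52797 of 64803 barcodes were kept, with a median of 1244 to 2662 UMIs per barcode. On day 11 the filters took out 5391 and 5428 barcodes, and elsewhere at most 611. Only 99 barcode sequences occurred in more than 1 library, with at most 11 shared by any 2. All libraries carried Y-linked transcripts, with Ddx3y at 44.3 to 80.8 CPM (UMIs of the gene per 1000000 UMIs), Eif2s3y at 59.0 to 106, Kdm5d at 5.85 to 14.5 and Uty at 9.51 to 21.8, and Xist, which is expressed from the inactive X of females, was at most 1.01 CPM. No library was therefore of female cells alone.

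Kap took 287 of every 10000 UMIs in the control library (exact 95% interval 287 to 288, covering counting error only). Day 1 had 13.3, day 2 had 31.6 and day 4 had 123. Day 7 gave 2.63 in replicate 1 and 21.9 in replicate 2, which differed 8.34-fold. Day 11 gave 315 and 366, and day 14 gave 407 and 321. The libraries of days 11 and 14 all lay above the control, and those of days 1, 2, 4 and 7 all below it, with day 7 replicate 1 the lowest. Per 10000 UMIs without mitochondrial genes, day 11 replicate 1 (388.7) did not lie above the control (388.8), while the other 3 libraries of days 11 and 14 did. Among all genes Kap ranked 3 in the control library and 51, 18 and 3 on days 1, 2 and 4. It ranked 642 and 26 on day 7 and 2 in all 4 libraries of days 11 and 14, where no nuclear gene had more UMIs. In the other libraries that place was held by Malat1, a nuclear long noncoding RNA. The share reached 4.07% of all UMIs in day 14 replicate 1, so any value per total UMIs in these libraries includes Kap itself in its denominator.

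**Figure D1:**
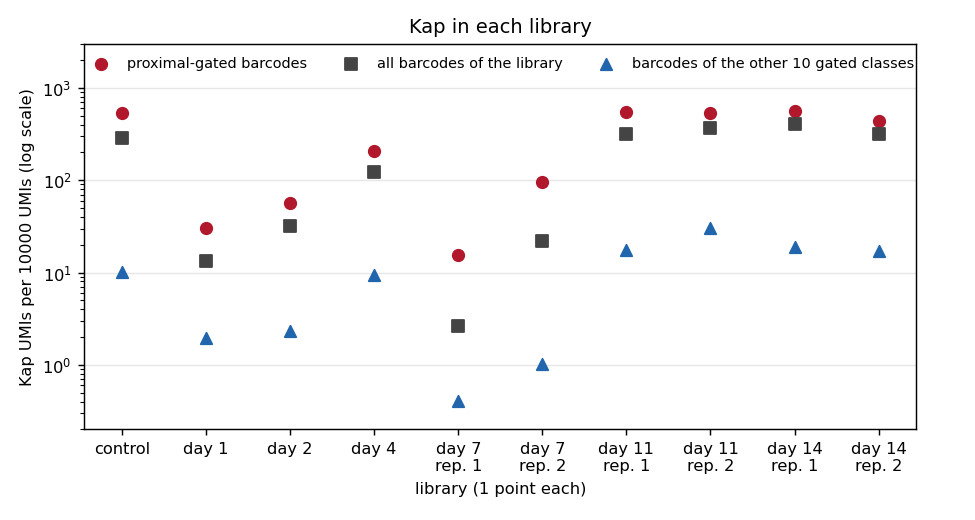
Kap UMIs per 10000 UMIs (log axis) in each of the 10 libraries, 1 point per library and population. Circles are barcodes of the proximal gate, squares all barcodes, and triangles the barcodes of the other 10 gated classes. All 3 series are lowest in day 7 replicate 1 (15.4, 2.63 and 0.405) and lie below the control on days 1, 2, 4 and 7.

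Cells were assigned by gates on marker genes that do not include Kap. A barcode was called proximal when it held at least 3 of 16 proximal transporter and uptake-receptor genes, among them Lrp2 (megalin), Slc34a1 (the phosphate transporter) and Slc22a6 (an organic anion transporter), and at least 2 times as many of these as markers of any other class. The gate took 3609 control barcodes, 896 on day 1, 1837 on day 2 and 2858 at day 4. From the later pairs of libraries it took 407 and 659 (day 7), 3211 and 3578 (day 11), and 4996 and 4473 (day 14). A proximal cell whose transporters fell would leave this gate, so it describes the cells that still bore proximal markers. The gate held most of the Kap UMIs of every library. It held 93.7% of all Kap UMIs of the control against 50.2% of all UMIs, and 80.5% to 94.4% of the Kap UMIs of days 1, 2, 4 and 7. It held 95.4% and 96.2% on day 14. On day 11 it held 71.2% and 71.3%, and a further 23.9% and 24.3% lay in the removed barcodes, most of which had too few genes.

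In proximal barcodes Kap made up 537 of 10000 UMIs in the control. Day 1 had 30.6, day 2 had 56.9 and day 4 had 210. The 2 libraries of day 7 gave 15.4 and 96.4, a 6.25-fold difference. Day 11 gave 551 and 537, and day 14 gave 563 and 442. In order from the lowest the groups were day 7 replicate 1, day 1, day 2, day 7 replicate 2 and day 4, followed by 5 libraries between 442 and 563. The values of days 1 and 2 lay between the 2 libraries of day 7, so these groups cannot be ordered beyond the spread of day 7. Likewise the control and day 11 values lay within the range of the 2 day 14 libraries. Per 10000 UMIs without mitochondrial genes, however, the control had 692. This was above the means of day 11 (635, SD 33.9) and day 14 (610, SD 94.2). Over all UMIs, the control level was 17.6 times that of day 1, 9.43 times that of day 2, 2.56 times that of day 4, and 34.8 and 5.57 times those of day 7.

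Both the number of proximal UMIs and the Kap share within them differed on day 7. Proximal barcodes held 50.2% of all UMIs in the control and 13.99% and 20.9% on day 7, which is 3.59 and 2.40 times less. The whole-library Kap share was 109 and 13.1 times below the control. On day 2 the proximal barcodes held 52.4% of the UMIs, close to the control share, and their Kap level was 9.43 times lower.

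Kap was unevenly spread among the proximal barcodes of the injured kidneys. In the control 91.7% of proximal barcodes carried Kap at 100 or more per 10000 UMIs, and 8 of 3609 (0.222%) had no Kap UMI. On day 1 only 6.47% reached 100 and 42.4% had no Kap UMI. On day 2 11.9% reached 100 and 24.4% had none. On day 4 36.0% reached 100 and 4.83% had none. In the day 7 libraries 3.19% and 26.7% reached 100, and 74.0% and 41.0% had none. Those of day 11 had 88.8% and 91.7% at 100 or more, and those of day 14 had 84.3% and 78.6%. Barcodes without Kap were 0.0838% to 0.623% of proximal barcodes on those days.

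Median levels per barcode stood further below the control than the summed levels did. The control median was 484 per 10000 UMIs, against 3.12, 10.3 and 42.7 on days 1, 2 and 4. In day 7 replicate 2 the median was 3.86 while the 90th percentile was 501, above the control median. In day 7 replicate 1 the median was 0 and the 90th percentile was 26.9. The 10% of proximal barcodes with the most Kap UMIs held 42.5% of the proximal Kap in the control. It held 85.8%, 82.7% and 70.4% on days 1, 2 and 4, 91.9% and 74.9% at day 7, and 33.7% to 46.3% later. In day 7 replicate 1 the Kap sum thus rests on few barcodes: 13 of 407 reached 100 per 10000 UMIs.

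**Figure D2:**
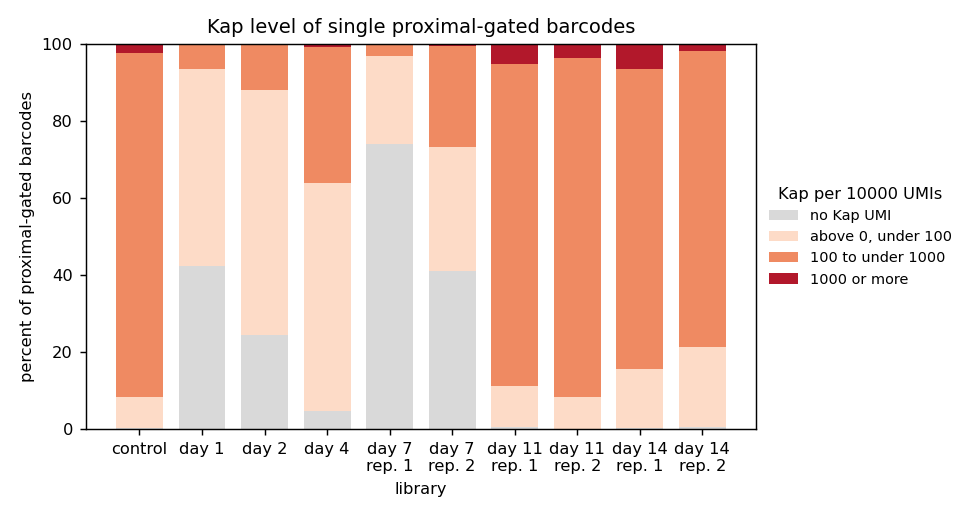
Percent of proximal-gated barcodes in 4 ranges of Kap per 10000 UMIs, 1 stacked bar per library. Barcodes at 100 or more make up 91.7% of the control, 6.47% of day 1 and 3.19% and 26.7% of day 7, and 78.6% to 91.7% of days 11 and 14.

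Depth moved with some of these shares. Median UMIs per proximal barcode were 2673 in the control and 2173, 2221 and 2326 on days 1, 2 and 4. The pairs of libraries had 1745 and 2714 (day 7), 1483 and 1403 (day 11), and 2053 and 2017 (day 14). With every proximal barcode thinned to 500 UMIs, 98.5% of the control barcodes had a Kap UMI. Days 1, 2 and 4 gave 33.1%, 48.3% and 74.0%, and day 7 gave 16.7% and 42.5%. Days 11 and 14 gave 95.6% to 99.0%. In macrophage-gated barcodes, a class that should lack Kap, the thinned share was 81.4% in the control, 17.5%, 12.9% and 51.2% on days 1, 2 and 4, and 3.497% and 7.01% at day 7. Their median depths were 1183, 1247, 2570, 1446, 1255 and 1718 UMIs. The thinned macrophage share was 57.1% and 82.4% on day 11 and 75.8% and 76.1% on day 14. It gives the background of such shares and lay below the proximal share in every library. The gap was as small as 99.0% against 82.4% in day 11 replicate 2 and 98.5% against 81.4% in the control. In levels the control classes were further apart, at 537 against 33.7 per 10000 UMIs.

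The summed counts of the proximal barcodes were fitted with edgeR's quasi-likelihood method over 14689 genes. All 10 libraries entered 1 fit with 1 term per group, and the 3 replicated days gave 3 residual degrees of freedom. The lone control was assumed to vary like the replicated days. Since Kap was chosen by its level in these barcodes, its fitted changes are a description with no test, and p-values are given for other genes only. The log2 change of Kap from control to day 7 was -4.12, a 17.4-fold lower level. In this comparison 19.3% of all genes tested were lower and 18.4% higher at an adjusted p under 0.05, and 125 genes had a more negative log2 change than Kap. Both day 7 libraries lay below the control.

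From day 7 to day 11 the log2 change of Kap was 4.02, or 16.3-fold. Of all genes, 19.2% were higher and 19.5% lower in that comparison. From day 7 to day 14 it was 3.88, or 14.7-fold, where 19.8% of genes were higher and 20.1% lower. Every library of days 11 and 14 was above both libraries of day 7. The comparisons with day 7 share its libraries, and the 1 control library serves all 3 comparisons with control.

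On the later days the log2 change of Kap from the control was -0.10 on day 11 and -0.25 on day 14. Between days 11 and 14 it was -0.14. Shares of all genes called were 9.58% higher and 11.6% lower on day 11 against control, 4.15% and 5.17% on day 14 against control, and 3.96% and 5.59% on day 14 against day 11.

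The size of the day 7 difference depended on the barcodes and on single libraries. With only the proximal barcodes that had no Havcr1 UMI, the log2 change from control to day 7 was -2.65, that from day 7 to day 11 was 2.54 and that from day 7 to day 14 was 2.39. In these barcodes the 2 day 7 libraries held 8.51 and 272 Kap UMIs per 10000, further apart than over all proximal barcodes. Over all proximal barcodes the change from control to day 7 was -3.34 without day 7 replicate 1 and -6.02 without replicate 2.

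Proximal barcodes called straight carried more Kap than those called convoluted. Proximal barcodes were split by UMIs of 8 markers of each part, such as Slc5a2 (the glucose transporter SGLT2) and Slc7a7 for convoluted and Slc7a13 and Slc22a7 for straight. Some straight markers followed Kap over the 10 libraries, such as Acsm3 (Pearson r = 0.989) and Slc7a13 (0.954). Convoluted markers differed in this, with -0.713 for Slc5a2 and 0.943 for Slc22a6. Both marker lists were chosen with earlier results of these data known, so the p-value below is no independent support. The part of this choice of markers in the differences below was not tested. Straight against convoluted barcodes held 627 against 283 Kap per 10000 UMIs in the control, and 164 against 75.2 on day 4. In day 7 replicate 2 they held 205 against 30.2. On day 11 the pairs were 658 against 317 and 711 against 291, and on day 14 they were 819 against 235 and 765 against 225. The straight barcodes were higher in 7 of 7 libraries, by a mean of 1.56 ± 0.610 on the log2 scale (SD, n = 7 libraries). A two-sided exact permutation of the signs gave p = 0.015625, the smallest it can give, and 0.03125 after adjustment over the 2 paired tests. With any 1 of the 7 libraries left out all 6 others stayed positive, by a mean of 1.36 to 1.65, but 6 libraries cannot give an exact permutation p under 0.0625 after that adjustment, so the call was then lost. Straight barcodes had a higher median of UMIs than convoluted ones in all 7 libraries. The medians were 3001 and 1699 in the control, where the log2 difference in Kap was 1.15, and 2234 and 2127 on day 4 (1.13). On day 11 they were 1442 and 1343 in replicate 1 (1.05) and 1272 and 1242 in replicate 2 (1.29). They were 3598 and 2360 in day 7 replicate 2 (2.76), and on day 14 1967 and 1557 (1.80) and 2227 and 1681 (1.77). The part of depth in these differences was not tested. On days 1 and 2 and in day 7 replicate 1 only 2, 2 and 4 barcodes were called straight, too few for a value.

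On days 1 to 7 levels were lower in the convoluted barcodes as well, but the split changed in makeup. Convoluted barcodes were 24.6% of the proximal barcodes in the control, 77.3%, 92.1% and 52.8% on days 1, 2 and 4, 73.2% and 51.3% on day 7, and 28.1% to 49.6% on days 11 and 14. Most other proximal barcodes fell in neither part. These were 67.6% in the control, with 568 Kap per 10000 UMIs, nearer to the straight than to the convoluted level. On days 1, 2 and 4 they held 113, 184 and 306, on day 7 they held 30.6 and 163, and on days 11 and 14 they held from 550 to 643. Convoluted barcodes held 11.99, 46.5 and 75.2 per 10000 UMIs on days 1, 2 and 4 and 10.2 and 30.2 at day 7, against 283 in the control. Their depth was above the control's, with medians of 1747 to 2360 UMIs per barcode against 1699. The straight share of proximal barcodes was 7.84% in the control, 0.109% to 1.75% on days 1, 2 and 4, 0.983% and 4.70% on day 7, and 4.78% to 9.98% on days 11 and 14. A loss of straight cells, a loss of their markers and a change in which cells were called convoluted cannot be told apart in this split. Within convoluted barcodes alone, a fit added after the data had been seen, the log2 change of Kap from control to day 7 was -4.49.

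Kap differed by Havcr1 in some libraries, in both directions. A Havcr1 UMI was present in 0.887% of control proximal barcodes. It was present in 68.3%, 10.2% and 53.3% on days 1, 2 and 4, in 64.4% and 54.3% at day 7, and in 0.671% to 1.14% later. Barcodes with Havcr1 held 34.2 Kap per 10000 UMIs on day 1 against 14.4 in those without. On day 4 the order was the opposite, with 158 against 317. The 2 day 7 libraries also differed in order, with 17.7 against 8.51 in replicate 1 and 45.2 against 272 in replicate 2. Over the 10 libraries the mean log2 difference was -0.14 ± 1.08 (SD, n = 10), with 4 libraries positive and 6 negative (two-sided exact permutation p = 0.732, also after adjustment over the 2 tests). With the median over barcodes in place of the sum 6 libraries were positive and 3 negative, and with at least 50 barcodes in each part 4 were positive and 3 negative. Barcodes with a Havcr1 UMI were deeper in every library, for example 8244 against 2660 median UMIs in the control, and the part of depth in these differences was not tested.

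Kap was higher in barcodes with 6 or more proximal markers than in those with 3, in each of the 10 libraries. Control barcodes with 3 markers held 329 per 10000 UMIs, those with 4 or 5 held 390 and those with 6 or more held 543, at median depths of 1128, 1324 and 3060 UMIs. On day 4 the same bins held 31.1, 52.6 and 252, and in day 7 replicate 2 they held 13.3, 24.4 and 130. Marker number depends on depth, and its part in this order was not tested.

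Kap UMIs were also found in barcodes of cells that are not known to make it. In droplet data, free RNA of the suspension is captured along with the cell's own RNA, so such a level is read as background. Over 10 gated classes other than proximal tubule, from thick limb and collecting duct cells to endothelium and leukocytes, Kap was 10.1 per 10000 UMIs in control barcodes, against 1.94, 2.34 and 9.44 on days 1, 2 and 4. The pairs of libraries gave 0.405 and 1.03 (day 7), 17.6 and 30.4 (day 11), and 18.9 and 16.9 (day 14). These levels were 1.06% to 6.35% of the proximal level of the same library, and the proximal level was 15.7 to 94.0 times higher. The level in the other classes was lowest in day 7 replicate 1, where the proximal and whole-library levels were lowest too. The order did not hold throughout. Day 7 replicate 2 lay below days 1 and 2 in the other classes, but its proximal level (96.4) lay above theirs (30.6 and 56.9). Barcodes outside these classes with at least 2 of 6 injury markers, among them Havcr1 and Krt20, and fewer than 3 proximal markers formed an injury class. It took 659, 102 and 395 barcodes on days 1, 2 and 4 and 328 and 247 on day 7, and at most 6 in any other library. Kap in it was 5.55, 1.71 and 13.7 per 10000 UMIs on days 1, 2 and 4 and 0.412 and 0.775 on day 7. In barcodes of the 10 other classes with no proximal marker at all, Kap was 10.99 in the control and 0.385 and 0.996 on day 7.

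Across the other classes the count per barcode ranged less widely than the share of UMIs in all 10 libraries. In the control, classes with at least 20 barcodes held from 4.18 Kap UMIs per barcode in podocytes to 5.66 in thick limb cells, a 1.35-fold range. Their share ranged 5.30-fold, from 6.37 per 10000 UMIs in distal convoluted cells to 33.7 in macrophages, whose median depths were 5361 and 1183 UMIs. Day 4 gave 2.33 to 2.82 UMIs per barcode, a 1.21-fold range, and a 3.38-fold range of shares. Day 14 gave 1.28-fold and 1.46-fold ranges per barcode and 2.72-fold and 2.34-fold ranges of shares. On day 11 the ranges were closer, at 1.92-fold and 1.43-fold per barcode and 2.23-fold and 1.70-fold for shares, with 2.84 to 5.46 Kap UMIs per barcode in replicate 1. The ranges per barcode on days 1, 2 and 7 were from 1.73-fold to 4.74-fold, and there none of the 10 other classes with at least 20 barcodes held more than 1.24 Kap UMIs per barcode. Proximal control barcodes held 236 Kap UMIs each. A Kap UMI was found in 98.0% of all control barcodes but in 9.83% of those of day 7 replicate 1. Such a UMI by itself did not mark proximal cells: in the control 94.1% of the barcodes of other classes had one, against 6.75% in day 7 replicate 1.

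**Figure D3:**
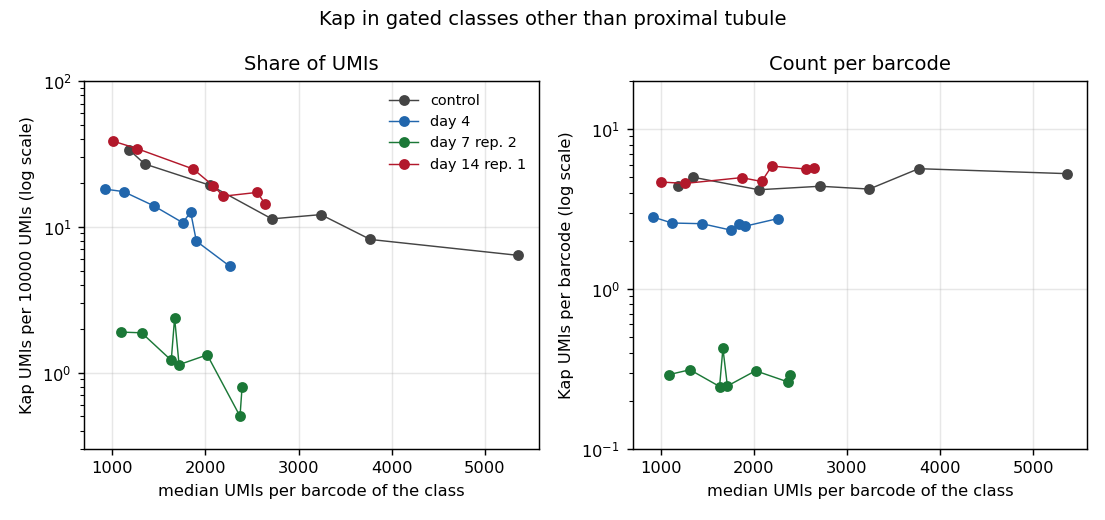
Kap in gated classes other than proximal tubule with at least 20 barcodes, against the class's median UMIs per barcode, in 4 libraries (log vertical axes). In the control the share of UMIs (left) runs from 6.37 to 33.7 and the count per barcode (right) from 4.18 to 5.66.

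Kap's level in other classes was a smaller part of its proximal level than for most abundant proximal transcripts. Among 19 other abundant proximal transcripts, the level in the other classes was a median of 2.78% of the proximal level in the control, against 1.89% for Kap. Kap lay below that median in all 10 libraries, and from 0 to 5 of the 19 genes were lower still. The lowest value among the 19 belonged to Cyp2e1, a drug-metabolising cytochrome, Pck1, the gluconeogenic enzyme, or Akr1c21, a steroid dehydrogenase. The highest was most often Pdzk1ip1, whose level in the other classes of the control was 120% of that in the proximal gate.

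Other genes described as androgen-responsive in mouse kidney were mostly lower on day 7. Of 8 such genes besides Kap, 7 were lower on day 7 than in the control and 1 was higher, where 19.3% and 18.4% of all genes tested were. In the same comparison 15 of the 19 other abundant proximal transcripts were lower and none was higher. The median log2 change of the 8 was -3.22, against 0.04 over all genes tested. This list and the gene lists below were chosen with earlier results of these data known, so their counts of calls are a description. Odc1, the polyamine enzyme ornithine decarboxylase, had 1628 CPM in control proximal sums and 99.8 and 112 on day 7 (log2 change -4.81, edgeR adjusted p = 1.08e-06). Slco1a1, an organic anion transporter, had 1548 CPM against 40.3 and 175 (log2 change -4.62). The oxysterol hydroxylase Cyp7b1 (-4.37), Cyp4b1 (-3.83), the alcohol dehydrogenase Adh1 (-2.61) and the beta-glucuronidase Gusb (-2.52) were also lower. Cyp7b1 had 70.9 CPM in the control and 1.01 and 8.20 on day 7, so its change rests on few UMIs. Cyp2j13 changed least (-1.09, edgeR adjusted p = 0.0112), and this call was lost without TMM scaling (-0.22, adjusted p = 0.552). Aoc1, a diamine oxidase, went the opposite way, from 0.693 CPM in the control to 586 and 538 on day 7 (log2 change 8.76, edgeR adjusted p = 1.6e-07).

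On the later days some genes of this list stayed lower than in the control. Of the 8 genes, 6 were higher and 1 lower on day 11 than on day 7, and Gusb did not pass (0.03, edgeR adjusted p = 0.950), where 19.2% of all genes were higher and 19.5% lower. The 6 became 4 in barcodes with no Havcr1 UMI, where 1767 of 14492 genes were higher and 1241 lower. Slco1a1 (1.83, adjusted p = 0.0577) and Cyp2j13 (0.74, adjusted p = 0.141) were lost there. Cyp2j13 was also lost without TMM scaling (0.26) and without day 11 replicate 2 (0.70, adjusted p = 0.0990), and Cyp7b1 in convoluted barcodes alone (2.03, adjusted p = 0.170). Gusb passed as lower with all kept barcodes (-0.69, adjusted p = 0.0456) and in convoluted barcodes alone (-0.93, adjusted p = 0.0353). On day 11 against control 3 were lower, 1 was higher and 4 did not pass, where 11.6% of all genes were lower and 9.58% higher. The 3 were Odc1 (log2 change -1.73, edgeR adjusted p = 0.00213), Gusb (-2.49, adjusted p = 0.000964) and Slco1a1 (-1.67, adjusted p = 0.0306), and Aoc1 was higher (2.74, adjusted p = 0.001002). The call of Slco1a1 was lost without either day 11 library (-1.52 and -1.85, adjusted p = 0.149 and 0.122). In convoluted barcodes alone 1 of the 8 was lower on day 11, where 770 of 12244 genes were lower and 771 higher. The calls of Odc1 (-0.76, adjusted p = 0.0769) and Slco1a1 (-1.02, adjusted p = 0.0601) were then lost. On day 14 Odc1 (log2 change -1.73, edgeR adjusted p = 0.00499) and Gusb (-1.93, adjusted p = 0.00612) were lower on day 14, and the other 6 genes did not pass, where 5.17% of all genes were lower and 4.15% higher. Both day 14 calls were lost in convoluted barcodes alone, at -1.01 (adjusted p = 0.0625) and -0.98 (adjusted p = 0.105). Slco1a1 had 643 and 492 CPM on day 14 against 1548 in the control (log2 change -1.60, adjusted p = 0.0594). The control had 1628 CPM of Odc1 and 148 of Gusb, above every injured library (99.8 to 653 and 25.3 to 58.1). All calls against control rest on this 1 control library, whose spread was not measured. Whether the changes of the 8 genes differ from that of Kap was not tested.

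**Figure D4:**
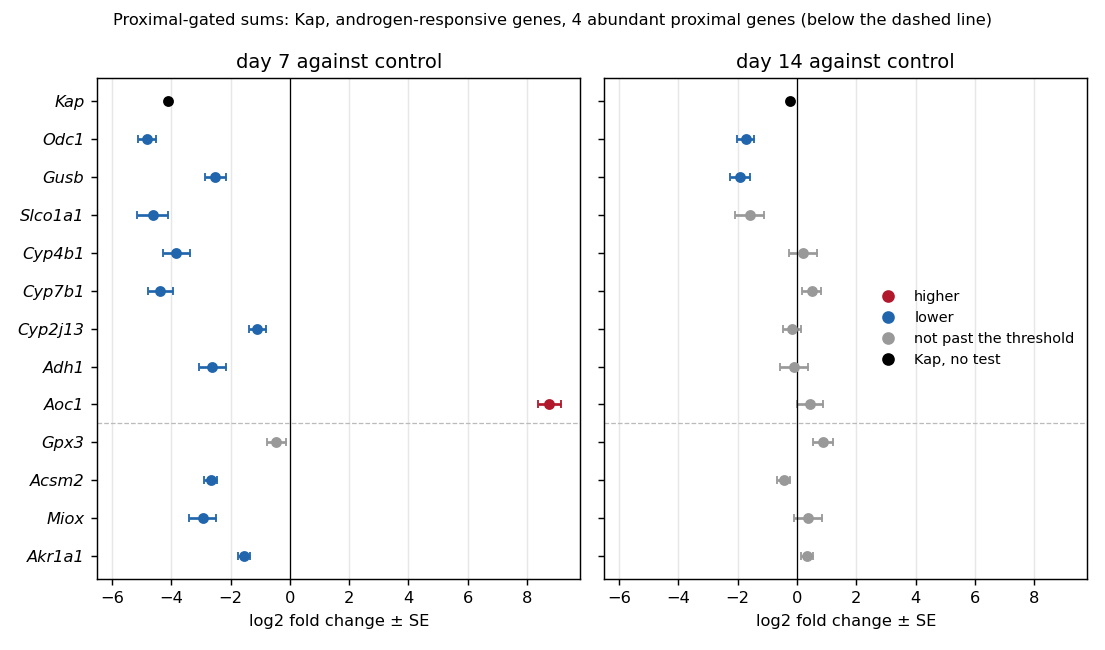
Log2 fold change from the edgeR fit of proximal-gated sums, with its SE except for Kap, for Kap, the 8 other androgen-responsive genes and the 4 most abundant genes of the proximal list. Kap is drawn in black, with no test. On day 7 (left) 7 of the 8 are lower and Aoc1 is higher, and on day 14 (right) Odc1 and Gusb alone among the genes tested in the plot pass the threshold.

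Genes described as higher in female kidney were scarce in these cells, at no more than 20.8 CPM in any library. Of 4 such genes, Slc7a12, an amino acid transporter, and Prlr, the prolactin receptor, were higher on day 7 than in the control, where 18.4% of all genes were, and the other two did not pass. Slc7a12 had 0.441 CPM in the control and 14.1 and 20.8 at day 7, followed by 10.6 and 7.32 (day 11) and 1.09 and 3.04 (day 14) (log2 change on day 7 4.47, edgeR adjusted p = 0.000339). It was also higher on day 11 than in the control (4.19, edgeR adjusted p = 0.00193), a call lost in convoluted barcodes alone (1.02, adjusted p = 0.583). Slc22a29 changed by -0.43 (adjusted p = 0.627) and Cyp4a14 by 1.33 (adjusted p = 0.266), both with edgeR. None of the 4 passed on day 14 against control, where 4.15% of all genes were higher and 5.17% lower. Unadjusted edgeR p-values in that comparison were 0.0156 for Slc7a12 and 0.018 for Prlr.

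Of 6 genes of hormone receptors, 3 were lower on day 7 than in the control, 1 was higher and 2 did not pass, against 19.3% of all genes lower and 18.4% higher. The oestrogen receptor Esr1 (-2.96), the thyroid hormone receptor Thrb (-1.88) and the growth hormone receptor Ghr (-2.66) were lower on day 7, and the prolactin receptor Prlr was higher (2.22). Esr1 was scarce, with 10.5 CPM in the control and 1.01 and 2.93 on day 7, so its change rests on few UMIs. Without day 7 replicate 1 the change of Prlr no longer passed (1.57, adjusted p = 0.0565). The thyroid hormone receptor Thra (0.04) and the glucocorticoid receptor Nr3c1 (-0.43) did not pass. Ghr had 612 CPM in the control, 155 and 199 on day 7 and 812 and 642 on day 14. Thrb was lower than in the control on day 11 (-1.41, edgeR adjusted p = 0.00347) and day 14 (-0.97, adjusted p = 0.0313). The day 14 call was lost without day 14 replicate 2 (-0.75) and with DESeq2 (-1.001, adjusted p = 0.0905). With edgeR it was also lost without TMM (-0.82, adjusted p = 0.0547) and with all kept barcodes (-0.55, adjusted p = 0.135). Both calls of Thrb were lost in convoluted barcodes alone. Nr3c1 was lower on day 11 (-0.78, edgeR adjusted p = 0.0345). The call was lost without day 11 replicate 2 (-0.57) and without either day 14 library (-0.78). This call was lost with DESeq2 (-0.77, adjusted p = 0.0511), without TMM (-0.66, adjusted p = 0.0617) and with all kept barcodes (-0.65, adjusted p = 0.0589). It was also lost with 6 or more markers (-0.76, adjusted p = 0.0550) and in convoluted barcodes alone (-0.80, adjusted p = 0.0813). No other gene of the 6 passed on days 11 and 14, where 11.6% and 5.17% of all genes were lower than in the control. Ppib, the cyclophilin B gene, was higher on day 7 (log2 change 0.94, edgeR adjusted p = 0.00897), on day 11 (1.16, adjusted p = 0.00680) and on day 14 (1.001, adjusted p = 0.0257) than in the control. The day 11 call was lost without day 11 replicate 2 (1.05, adjusted p = 0.0569). The day 14 call of Ppib was lost without either library of that day (1.01 and 0.995, adjusted p = 0.0731 and 0.106). With all kept barcodes of every class, Ppib no longer passed on these days. Its changes were then 0.24, 0.59 and 0.61 on days 7, 11 and 14 (edgeR adjusted p = 0.454, 0.104 and 0.123). The control had 89.3 CPM of Ppib in proximal sums, below all 9 injured libraries (197 to 351).

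Most other abundant proximal transcripts fell on day 7. Of the 19 on the list, 15 were lower than in the control and 4 did not pass, against 19.3% of all genes lower and 18.4% higher, with a median log2 change of -2.21 against 0.04 over all genes tested. With only barcodes that had no Havcr1 UMI, 10 of the 19 were lower and 9 did not pass. Over all 14492 genes of that fit 1361 were lower and 1170 higher, also fewer than in the main fit. Miox, the inositol oxygenase, changed by -2.94, the acyl-CoA synthetase Acsm2 by -2.67 and the aldehyde reductase Akr1a1 by -1.54. Gpx3, the plasma glutathione peroxidase and on average the most abundant of the 19, did not pass (-0.46, edgeR adjusted p = 0.272). It passed as lower without day 7 replicate 1 (-0.92, adjusted p = 0.0431) and in convoluted barcodes alone (-1.36, adjusted p = 0.00242), and had the opposite sign without TMM scaling (0.43). It had 5564 CPM in the control and 9673 and 5349 on day 7. Mpv17l was the 1 gene of the 19 with a more negative change than Kap. From day 7 to day 11, 18 of the 19 were higher, against 19.2% of all genes. On day 11 against control 5 were higher, 2 lower and 12 did not pass, where 9.58% of all genes were higher and 11.6% lower. This count was smaller without either day 11 library, where fewer of all genes were called too and 1 library was left on that day. With no Havcr1 UMI the count was 1 higher and 1 lower, where 1482 of 14492 genes were higher and 1734 lower. On day 14 against control 1 was higher, 1 lower and 17 did not pass, where 4.15% and 5.17% of all genes were higher and lower, and both calls were lost without day 14 replicate 2.

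Scaling set the zero point of these day 7 values. TMM scaling placed the median gene at 0.04 on day 7 against control, and the unscaled totals placed it at 0.91. Calls over all genes were then 6841 higher and 877 lower, against 2707 and 2842 with TMM. Without the scaling the change of Kap was -3.26. Of the 8 androgen-responsive genes 6 were lower without it, as were 14 of the 19 abundant proximal genes, while 2 of the 19 were then higher. In barcodes with no Havcr1 UMI, Cyp2j13 (-0.81), Ppib (0.78), Akr1a1 (-0.83) and Miox (-1.56) no longer passed on day 7 against control. In convoluted barcodes alone, Gusb (-0.48), Cyp7b1 (-1.42), Prlr (1.81) and Slc7a12 (1.13) did not.

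Over the 10 proximal sums, the genes whose log2(CPM + 1) followed that of Kap most closely were Mien1 (Pearson r = 0.994), Acsm3 (0.989), Cyp4b1 (0.984) and Inmt (0.982). They were followed by D630029K05Rik (0.978), Bhmt2 (0.976), Ces1f (0.975) and Adh1 (0.975). Acsm3 is also a marker of the straight part, and Cyp4b1 and Adh1 are on the androgen-responsive list. Inmt, a methyltransferase, had 868 CPM in the control, 10.9 on day 1, 3.02 and 122 at day 7, then 650 and 847 by day 14. Mien1 kept r high over a narrow range, from 112 CPM in day 7 replicate 1 to 306 in the control. The lowest correlations were those of Srek1 (-0.973), Brd3 (-0.967), Upf3b (-0.966) and Snrnp27 (-0.966). These are a description over 10 libraries and 3189 genes with a mean of at least 50 CPM, of which 126 had r above 0.9. The CPM used for r were not TMM-scaled. In the TMM-scaled fit the 4 genes of lowest r had a median log2 change of 0.08 on day 7 against control. None of the 4 passed there, where 18.4% of all genes were higher and 19.3% lower. All values of a library share its depth and its total, of which Kap itself is up to 563 in 10000 UMIs, and share the same split into low libraries of days 1 to 7 and high libraries of the control and days 11 and 14.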

How the data were processed

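Kap and all gene lists were chosen with earlier results of these data known. The authors deposited 1 table per library of counts per gene symbol and barcode, and these values were used as deposited. The whole numbers were taken to be UMIs, although no label says so. The submitters' processing notes name Bowtie2 2.2.7 and mm10. The counter and annotation are not given in the sources used here. Library totals were 7091848 to 31632205. Coordinates come from GENCODE M21.

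A barcode was kept with 500 or more UMIs, 500 or more genes and no more than 50% of UMIs from mitochondrial genes. No doublet caller was run. Leaving out barcodes above the 95th percentile of UMIs was an alternative. The proximal gate and those of 10 other classes needed at least 3 markers of a list and at least 2 times any other list. An injury class took ungated barcodes with at least 2 of 6 injury markers and fewer than 3 proximal ones. Kap was in no list of markers. The sub-gates of proximal barcodes needed at least 3 UMIs of the larger marker sum and 3 times the smaller. A level is Kap UMIs per 10000 UMIs of the barcodes summed. Intervals are exact (Clopper-Pearson, 95%) and cover counting error only.

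Counts summed over proximal barcodes were tested by the quasi-likelihood method of edgeR 4.0.16 under R 4.3.3, with filterByExpr, TMM scaling and Benjamini-Hochberg adjustment over all genes at 0.05. The SE drawn with a log2 change restates the test: it is the size of the change over the root of its F. Within libraries, log2 differences of Kap were tested by exact permutation of their signs (Python 3.11.15, numpy 2.4.6). For Kap the edgeR test between days was planned, but its p-values are not given, since the choice of Kap used its levels. Genes named were Kap, the 8 most and 4 least alike in Pearson r, the members of the androgen-responsive, female-biased, sex-linked and receptor lists and Ppib, and the 4 most abundant of the proximal list. Pdzk1ip1, Cyp2e1, Pck1, Akr1c21, Mpv17l and Malat1 were named outside this rule, after their values were seen. Some members of the receptor and abundant proximal lists are not reported here and are left out of the lists' counts. Alternatives were gates of 2 or 4 markers, other scaling, filters and tools, all kept barcodes, free RNA subtracted, each library of a replicated day left out of the fit and each library left out of the paired tests. DESeq2 1.42.0 was 1 of them. A fit on convoluted barcodes and one on barcodes with 6 or more markers were added after the data had been seen.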

Additional observations from a re-analysis of the deposited data

Results flagged for a closer look

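The difference in Kap between proximal barcodes with and without a Havcr1 UMI had opposite signs on days 11 and 14. On day 11 it was -0.38 and -0.06 on the log2 scale, and on day 14 it was 0.35 and 0.23, so the mean of day 14 lay 0.51 above that of day 11. The difference between the days was not tested. Each value rests on 24 to 51 barcodes with a Havcr1 UMI.

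Barcodes removed by the filters, which are part of the whole-library Kap shares but entered no gate and no fit, held more Kap per 10000 UMIs on days 11 and 14 than in the control. Day 11 gave 296 and 359, and day 14 gave 132 and 100.8, against 97.0 in the control. The removed barcodes numbered 5391 and 5428 on day 11, 265 and 261 on day 14, and 611 in the control. Those of day 11 mostly had fewer than 500 genes, while those of day 14 and the control all had more than 50% mitochondrial UMIs, so the removed sets differ in kind.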

How the results depend on the processing

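Over the planned and added alternatives, the straight against convoluted difference stayed positive, between 1.36 and 2.53 on the log2 scale. Its call was lost with any 1 library left out (1.36 to 1.65) and with at least 50 barcodes in each part (1.36), where 6 libraries allow no adjusted p under 0.0625. The 3 Kap comparisons with day 7 kept their direction in every alternative run. They were smallest in size with barcodes that had no Havcr1 UMI, at -2.65 (control to day 7), 2.54 (day 7 to 11) and 2.39 (day 7 to 14). The cause was not tested. With each library of days 7, 11 and 14 left out in turn they ranged from -6.02 to -3.34, from 3.24 to 5.92 and from 3.09 to 5.77. With all kept barcodes of every class the first was -5.30. The other comparisons changed sign in some alternatives. Day 11 against control became 0.15 with all kept barcodes, 0.039 in convoluted barcodes and 0.019 without TMM. Day 14 against control became 0.42, and day 14 against day 11 0.27, with all kept barcodes. These left-out libraries gave -0.14 to -0.07 for day 11 against control, -0.44 to -0.07 for day 14 against control and -0.34 to 0.027 for day 14 against day 11. The Havcr1 difference ranged from -0.29 to 0.14 and was positive without day 7 replicate 2 alone.

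Replicate numbers did not pair the libraries, whose deviations correlated at 0.04, -0.02 and -0.01 over 14689 genes. With a replicate block over the 6 replicated libraries Kap changed by 4.27 (day 7 to 11), 4.14 (day 7 to 14) and -0.12 (day 11 to 14).

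Among named genes on day 7 against control, signs changed without TMM for Nr3c1 (0.45), Gpx3 (0.43) and Slc22a29 (0.45). In barcodes with no Havcr1 UMI Gpx3 was 0.66 and Slc22a29 0.84. Calls were gained in 7 settings with the same sign and in 2 with the opposite sign. Gpx3 passed as lower with all kept barcodes (-1.67), in convoluted barcodes (-1.36), with no filter (-0.50) and without day 7 replicate 1 (-0.92). With all kept barcodes Slc22a29 (-1.83) and Nr3c1 (-0.63) passed as lower, and without TMM Thra passed as higher (0.91). Slc22a29 was 0.017 with 6 or more markers, and -1.54 to 0.78 with 1 library left out. Cyp4a14 was -0.99 in convoluted barcodes and -5.85 to 1.82 with 1 library left out. Thra was -0.0049 with a gate of 2 markers, -0.012 without the deepest barcodes, -0.38 with all kept barcodes, -0.19 in convoluted barcodes, -0.0045 with no filter and -0.077 to 0.21 with 1 library left out. Gusb from day 7 to 11 passed as lower with all kept barcodes (-0.69) and in convoluted barcodes (-0.93), and was -0.18 with no Havcr1 UMI, -0.15 with 6 or more markers, -0.72 without TMM, -0.021 with the replicate block and -0.13 to 0.29 with 1 library left out. A call was lost in 56 further settings of named genes.

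Counts of genes called moved by more than 1.5 times in some alternatives. Day 7 against control called 5549 genes, 2531 with no Havcr1 UMI and 2946 in convoluted barcodes. Day 11 against control called 3110, 1541 in convoluted barcodes, 973 and 1849 without a day 11 library and 2003 with DESeq2. Day 14 against control called 1369, and 260 to 2598 over the alternatives. Day 11 against day 7 called 5698 and at least 3008, day 14 against day 7 5866 and at least 2565, and day 14 against day 11 1402 and 214 to 3148. Levels moved by at most 1.35 times with another gate, filter or denominator. Single libraries of the control and of days 1, 2 and 4 have no replicate check.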
